A study of Mus musculus with 23 samples.

Results

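The genes described here encode the proteins with which muscle takes up fatty acids, stores them as triglyceride and oxidises them. A list of 34 genes was chosen by name. Of these, 32 had at least 1 probe set annotated to that gene alone, among 12393 genes named on the array, and each was read from its probe set with the highest mean signal. All 32 passed the filter on low values, as did 9133 genes in all. Acsl1 is not named in the platform table used here and Cpt1b is named there only in a probe set of several genes, so neither was measured.

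All samples were hindlimb muscle from C57BL/6J females, 77 days old, and each was read on 1 Affymetrix array. In the flight experiment, gastrocnemius came from mice in spaceflight (n = 4) and from mice on the ground in the same kind of flight cage, the animal enclosure module (ground AEM, n = 4), both over 11 days and 19 hours. In the calf experiment, calf muscle came from mice whose hindlimbs were unloaded by suspension over 12 days (suspension, n = 5). Further calf muscle came from mice suspended for 12 days and then let down for 3.5 h (reloaded, n = 5) and from untreated mice over 12 days (control, n = 5). The labels do not say which muscles the calf samples hold. They also do not say that replicates came from separate animals, so p-values here cover only the spread between samples, which may be technical. The groups are those of the titles, source names and design. The description field calls the spaceflight samples ground AEM and the ground AEM samples spaceflight, and under that reading all flight differences would have the opposite sign.

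Fatty acids reach a muscle fibre from circulating lipoproteins and albumin, cross the membrane with the help of transporters, and are bound in the cytosol and joined to coenzyme A. The acyl-CoA is then either esterified into triglyceride droplets or passed through the carnitine shuttle into mitochondria. There, each turn of beta-oxidation runs through a dehydrogenase, a hydratase, a second dehydrogenase and a thiolase, and shortens the chain by a 2-carbon unit. Slow and oxidative fibres are known for a higher content of these enzymes than fast glycolytic fibres, and the nuclear receptor PPAR alpha with its coactivator PGC-1 alpha is known to drive transcription of many of the genes.

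RefSeq promoter windows (build GRCm38.p6, from 250 bases before to 50 bases after the start of a gene) were at hand for 25 of the 32 measured genes, as 28 windows. A window is shown for the gene that was called in suspended muscle (Fabp3) and for a dehydrogenase whose suspended and control arrays did not overlap (Acadm). A further window is shown for Hadhb, which with Hadha forms a pair that runs in opposite directions from starts 273 bases apart. Capitals mark matches on either strand to AGGTCA, the half-site that nuclear receptors such as the PPARs bind, and to GGGCGG, the GC box. Fabp3 lies at chr4:130308488-130308787 on the plus strand and held no match to either motif. Acadm lies at chr3:153944594-153944893 on the minus strand and held a half-site at its upstream end. Hadhb lies at chr5:30155003-30155302 on the plus strand and held 4 GC boxes.
Fabp3: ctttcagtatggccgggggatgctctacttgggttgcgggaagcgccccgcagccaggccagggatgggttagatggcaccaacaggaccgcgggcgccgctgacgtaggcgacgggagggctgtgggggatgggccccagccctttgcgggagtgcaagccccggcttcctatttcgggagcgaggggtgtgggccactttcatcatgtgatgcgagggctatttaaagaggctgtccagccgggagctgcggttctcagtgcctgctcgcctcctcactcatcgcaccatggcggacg
Acadm: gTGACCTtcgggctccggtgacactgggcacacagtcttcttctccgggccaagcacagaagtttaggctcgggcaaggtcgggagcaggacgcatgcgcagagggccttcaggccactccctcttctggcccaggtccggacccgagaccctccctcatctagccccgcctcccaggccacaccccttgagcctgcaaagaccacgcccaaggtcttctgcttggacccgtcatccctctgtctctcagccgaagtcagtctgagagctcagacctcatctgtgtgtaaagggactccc
Hadhb: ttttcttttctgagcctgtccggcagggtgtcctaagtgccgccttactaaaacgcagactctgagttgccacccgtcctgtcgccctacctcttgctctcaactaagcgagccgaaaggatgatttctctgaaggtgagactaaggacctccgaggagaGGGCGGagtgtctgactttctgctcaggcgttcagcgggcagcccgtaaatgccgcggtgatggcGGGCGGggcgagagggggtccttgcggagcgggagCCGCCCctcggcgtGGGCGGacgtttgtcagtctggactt
The Hadha window (chr5:30154931-30155230, minus strand) overlapped that of Hadhb by 228 bases, and its single GC box is the first of the Hadhb window. A half-site was present in 4 genes (Acadm, Acadvl, Cd36 and Echs1), or 14.3% of the 28 windows, against 16.3% of all 32851 windows in the table. A GC box was present in 18 genes and 71.4% of their windows, against 35.7% of all windows. TATAAA, the TATA box, was present in none of the 28 windows and in 13.6% of all windows. A direct repeat of half-sites 1 base apart, in which the T of each may be any base, was likewise present in none of the 28 and in 0.381% of all windows. Matches only describe these windows.

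Median log2 signal was 6.15 to 6.23 on the flight arrays and 6.28 to 6.39 on the calf arrays, and the distance between the quartiles of an array was 2.75 to 2.91 in the flight experiment and 2.20 to 2.46 in the calf experiment, so levels were compared only within an experiment. A panel of 7 skeletal muscle markers averaged 13.39 to 13.42 on the spaceflight arrays and 13.40 to 13.47 on the ground AEM arrays (log2), and 13.42 to 13.50 on the calf arrays. No array duplicated another. Suspension replicate 8 stood apart, with a median correlation of 0.985 with its own group, and suspension replicate 9 had the next lowest at 0.989.

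Most fatty acid genes had a lower mean in suspended than in control calf muscle, mostly by small amounts that the test over all genes did not call. The mean log2 signal of the 32 measured genes was 9.38 to 9.61 on the suspension arrays. On the control arrays it was 9.55 to 9.77, so the ranges overlapped. Fabp3, the fatty acid binding protein of heart and muscle cytosol, fell by 1.03 ± 0.14 on the log2 scale (difference ± SE, n = 5 each), which is 51.2% lower (limma, adjusted p = 0.000805). It was the single member called of 32, where 0.372% of all 9133 genes were called. The log2 difference was below 0 in 27 of 32 members with a median of -0.22, whereas the median over all genes tested was 0.00. At an unadjusted p under 0.05, 20 members were lower and 1 was higher, against 5.04% and 3.61% of all genes. The suspension arrays lay below every control array in 6 members (Fabp3, Acadm, Acads, Hadhb, Etfa and Etfb) and above every one in none, against 1.34% and 0.701% of all genes.

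Without suspension replicates 8 and 9 the picture by direction was the same, with 27 members below 0, Fabp3 called and a median of -0.17, but 12 members in place of 20 were lower at an unadjusted p under 0.05. Without control replicate 21 that number was 13. It was 15 after quantile normalization within each experiment (median -0.15) and 16 with array weights (median -0.17). Slow fibre markers were lower in suspension too. All 9 were below 0 in suspended muscle with a median of -0.47, and 3 of them fell, where 0.372% of all genes were called. These were the slow light chain Myl3 (by 0.47), the calcium store protein Casq2 (by 0.64) and the Z-disc protein Myoz2 (by 0.56). The mean log2 signal of the 9 markers was 11.04 to 11.36 on the suspension arrays and 10.91 to 11.59 on the reloaded arrays, against 11.55 to 11.70 on the control arrays. In reloaded muscle all 9 were again below control (median -0.32), none called by limma. In flight, 5 of the 9 were below 0 (median -0.09) and the mean was 10.54 to 11.16 in spaceflight, against 10.82 to 11.09 in ground AEM. Fibroblast and Schwann cell markers were also read, with overlap between the groups for the fibroblast ones. The mean of 6 fibroblast markers was 8.73 to 9.61 in suspension and 9.21 to 9.74 after reloading, against 9.38 to 9.86 in control, with none called by limma. That of 3 Schwann cell markers was 8.80 to 9.36 in suspension and 7.82 to 9.53 after reloading, against 7.77 to 8.23 in control. Of the 3, 1 (Mbp) rose by 1.87 in suspension, again against 0.372% of all genes called. The part of slow fibres and of these other cells in the results was not tested, and in whole muscle fewer fibres of a type and less RNA per fibre cannot be told apart. Fast glycolytic markers averaged 13.21 to 13.42 in suspended and 13.34 to 13.45 in reloaded muscle, against 13.27 to 13.33 in control muscle. Every reloaded array thus lay above every control array, and the part of this shift in the results was not tested.

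After 3.5 h of reloading no fatty acid gene differed from suspension at the threshold. Between reloaded and suspended muscle no member was called by limma (0.58% of all genes were), 1 (Lpl) was lower at an unadjusted p under 0.05 (4.83% of all genes) and none was higher; with 1 sample left out, 0 to 3 were lower, 3 of them without suspension replicate 8, and 0 to 2 were higher, 2 of them without reloaded replicate 16. No member had groups without overlap, against 0.624% of all genes for lower and 0.832% for higher. The median difference was -0.02, as over all genes. Fabp3, at 0.28 ± 0.14, was the highest difference (95% interval -0.01 to 0.58, adjusted p = 0.544). Against control muscle, reloaded muscle had 30 of 32 members below 0 with a median of -0.24, where the median over all genes was -0.02. The mean log2 signal of the 32 was 9.30 to 9.56 on the reloaded arrays, against 9.55 to 9.77 on the control arrays. The highest reloaded array thus lay just above the lowest control array. Fabp3 fell by 0.75 ± 0.14 (40.6% lower, adjusted p = 0.0128) and was again the single member called, where 0.318% of all genes were called. At an unadjusted p under 0.05, 20 members were lower and 1 was higher, against 4.38% and 2.89% of all genes. Groups did not overlap in 7 lower members (Fabp3, Lpl, Acadvl, Acadm, Hadha, Echs1 and Etfa) and in 1 higher member (Dgat1), against 1.7% and 0.942% of all genes. The 3 calf comparisons share their samples, so the second control comparison is no independent repeat of the first.

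In flown gastrocnemius no member was called by limma, while 5.64% of all genes were. The log2 difference was below 0 in 21 of 32 members with a median of -0.08, where the median over all genes was -0.01. At an unadjusted p under 0.05, 6 members were lower and 2 were higher (Dgat1 and Pnpla2), against 9.6% and 10% of all genes. None was higher without spaceflight replicate 10 or ground AEM replicate 2, 1 was without spaceflight replicate 11, and 4 were without ground AEM replicate 3. The spaceflight arrays lay below every ground AEM array in 5 members (Crat, Acads, Hadh, Acaa2 and Eci1) and above every one in none, where 6% of all genes were lower without overlap and 6.38% higher. Of these 5, Crat belongs to the carnitine shuttle and the other 4 to the mitochondrial cycle with its auxiliary enzymes.

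**Figure D1:**
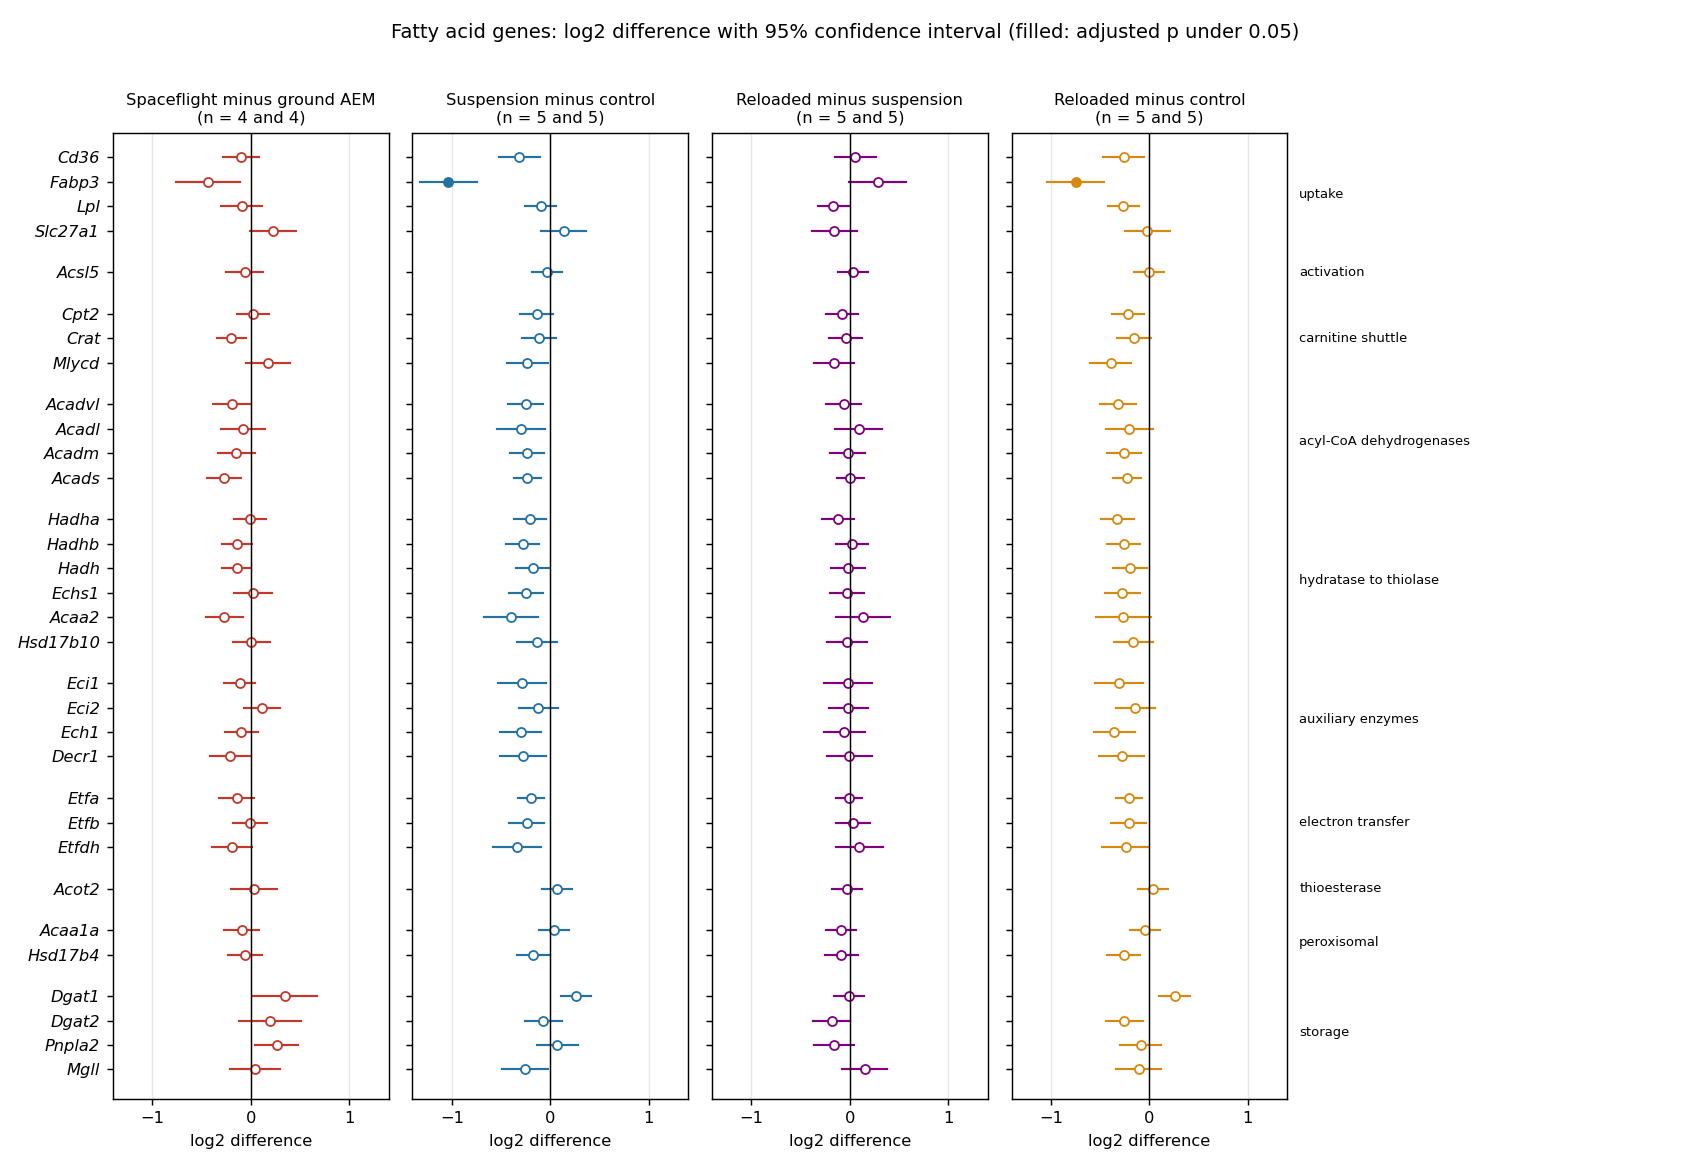
Log2 difference of each of the 32 measured genes in the 4 comparisons of groups, ordered by step, with 95% confidence intervals from limma; filled points passed an adjusted p of 0.05. Fabp3 is the single filled point in the suspension and reloaded panels against control (-1.03 and -0.75), most oxidation genes sit left of 0 in both, and the reloaded minus suspension panel centres on 0.

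Uptake begins with lipoprotein lipase (Lpl), which frees fatty acids from circulating triglyceride, and with the membrane proteins Cd36 and Slc27a1 (a fatty acid transporter), while Fabp3 carries them in the cytosol. Fabp3 read 10.69, 10.83, 10.86, 10.89 and 11.21 on the suspension arrays and 10.81, 11.13, 11.16, 11.24 and 11.57 on the reloaded arrays, against 11.57, 11.69, 11.98, 12.06 and 12.36 on the control arrays (log2 signal, in ascending order here and below). Every suspended sample lay below every control, and the highest reloaded sample lay just below the lowest control. In the flight experiment Fabp3 read 11.06, 11.17, 11.24 and 11.66 in spaceflight, against 11.38, 11.57, 11.93 and 12.00 in ground AEM. Spaceflight replicate 10 reached into the ground AEM range, and the difference of -0.44 ± 0.15 (26% lower, 95% interval -0.76 to -0.11) was not called (adjusted p = 0.120). It was called without that sample (-0.56, adjusted p = 0.0424) or without ground AEM replicate 2 (-0.55, adjusted p = 0.0488).

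The call on Fabp3 in suspended muscle held in each of the 10 fits that left out a sample (-1.12 to -0.93, adjusted p 0.000430 to 0.00489). In reloaded muscle it was lost without control replicate 21 (-0.65, adjusted p = 0.0502) or control replicate 22 (-0.72, adjusted p = 0.0508). Cd36 was lower by 0.32 ± 0.10 in suspended muscle and by 0.26 ± 0.10 in reloaded muscle than in control, neither called (adjusted p = 0.278 and 0.538). Lpl differed by -0.10 ± 0.07 in suspended and -0.27 ± 0.07 in reloaded muscle (adjusted p = 0.747 and 0.216), and its second probe set gave -0.49 in suspended muscle (adjusted p = 0.0632 over all probe sets). With the mean of both probe sets, Lpl was called in reloaded muscle at -0.34 (adjusted p = 0.0374). Slc27a1 differed by 0.23 ± 0.11 in flight, 0.14 ± 0.11 in suspension and -0.02 ± 0.11 in reloading, with no call. In flight, Cd36 and Lpl differed by -0.10 ± 0.08 and -0.09 ± 0.10.

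Acsl5, which joins coenzyme A to long-chain fatty acids, was the single measured gene of the activation step. It read 6.60, 6.77, 6.78 and 7.00 in spaceflight, against 6.82, 6.83, 6.87 and 6.89 in ground AEM. On the calf arrays it read 6.69, 6.77, 6.82, 6.82 and 6.92 in suspension and 6.78, 6.78, 6.80, 6.87 and 6.93 after reloading, against 6.64, 6.80, 6.82, 6.92 and 6.99 in control. The groups overlapped throughout, with differences of -0.06 ± 0.09 in flight, -0.03 ± 0.07 in suspension and 0.00 ± 0.07 in reloading.

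The carnitine shuttle was read from Cpt2, which returns acyl groups to coenzyme A inside the mitochondrion, from Crat, the carnitine acetyltransferase of short chains, and from Mlycd, which breaks down malonyl-CoA, the inhibitor of the shuttle's entry enzyme. Crat read 10.41, 10.48, 10.49 and 10.50 in spaceflight, against 10.59, 10.63, 10.72 and 10.72 in ground AEM. The groups did not overlap, but the difference of -0.20 ± 0.07 was not called (adjusted p = 0.139). In the calf experiment Crat read 10.08, 10.08, 10.22, 10.30 and 10.30 in suspension and 9.90, 10.15, 10.16, 10.21 and 10.35 after reloading, against 10.20, 10.24, 10.35, 10.37 and 10.41 in control. These groups overlapped (-0.12 ± 0.08 and -0.16 ± 0.08 against control). Cpt2 differed by 0.02 ± 0.08 in flight, -0.14 ± 0.08 in suspension and -0.22 ± 0.08 in reloading, none called.

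Mlycd was the 1 member of 32 whose flight and reloaded effects differed by the test of the difference itself, where 2.74% of all genes were called. It read 9.04, 9.12, 9.22 and 9.36 in spaceflight, against 8.84, 8.92, 9.03 and 9.27 in ground AEM. In the calf experiment it read 8.44, 8.53, 8.77, 8.79 and 8.86 in suspension and 8.35, 8.45, 8.48, 8.50 and 8.80 after reloading, against 8.73, 8.84, 8.86, 9.04 and 9.08 in control. Flight values leaned upward and 4 of 5 reloaded values lay below every control, with overlap in each case. The effects were 0.17 ± 0.10 in flight, -0.23 ± 0.10 in suspension and -0.39 ± 0.10 in reloading, none of them called (adjusted p = 0.390, 0.492 and 0.124). The flight effect exceeded the reloaded effect by 0.57 ± 0.15 (adjusted p = 0.0340). That call was lost in 9 of the 18 fits that left out a sample (0.51 to 0.65, adjusted p up to 0.0910). It was also lost after quantile normalization (0.54, adjusted p = 0.0577) and with the flight groups exchanged (0.22, adjusted p = 0.513).

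**Figure D2:**
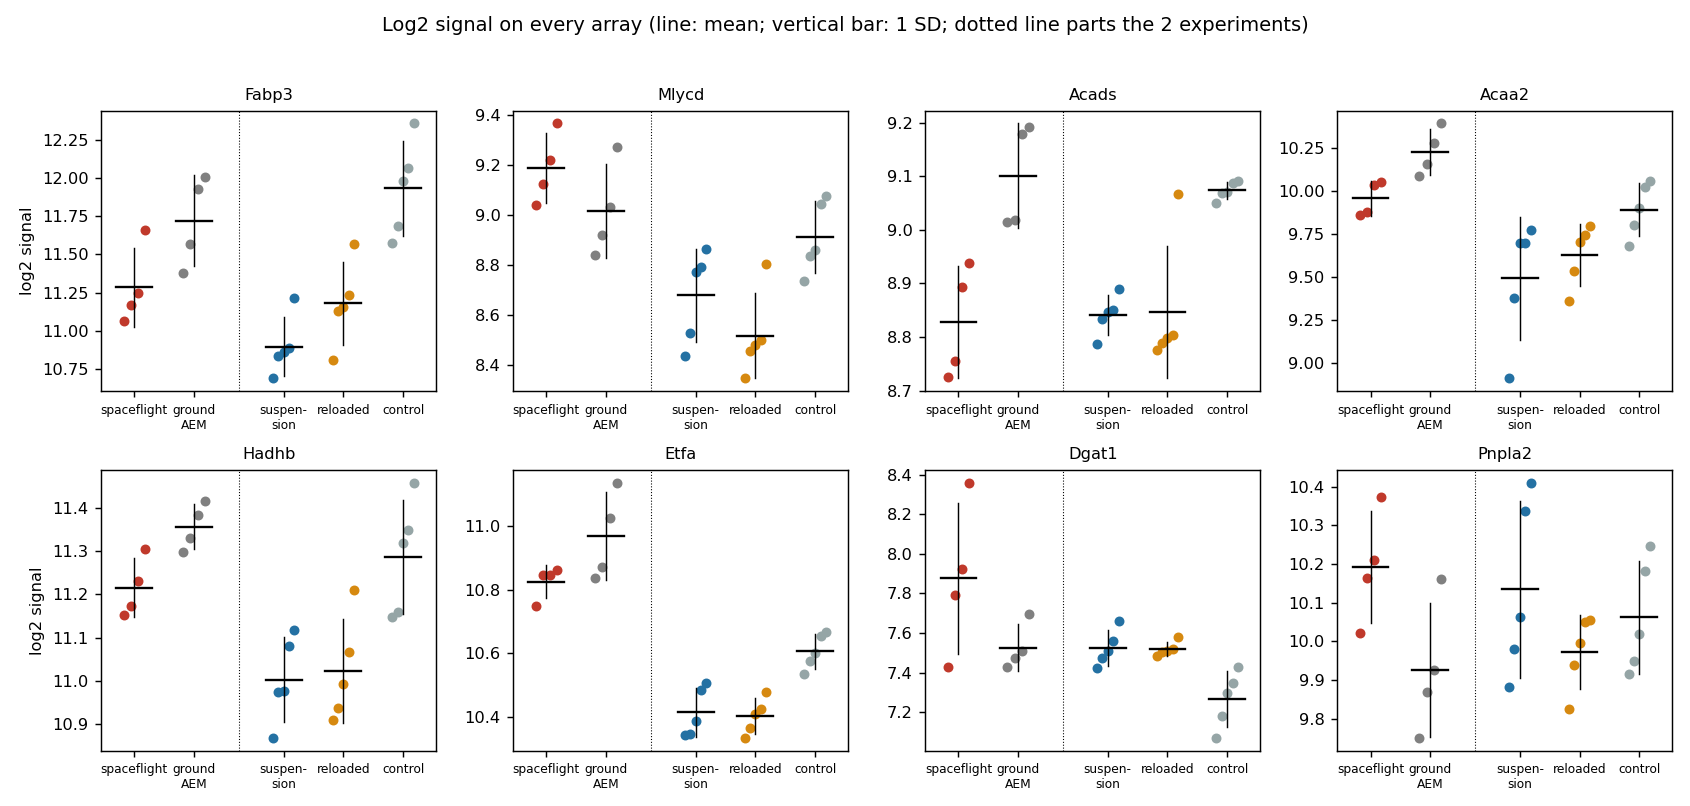
Log2 signal of 8 fatty acid genes on each of the 23 arrays, by group, with the mean (horizontal line) and 1 SD (vertical bar); the dotted line parts the flight arrays from the calf arrays, whose levels are not compared. All 5 suspension points lie below all 5 control points for Fabp3, Acads, Hadhb and Etfa, and the spaceflight points lie below the ground AEM points for Acads and Acaa2.

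The 4 acyl-CoA dehydrogenases open each turn of beta-oxidation, Acadvl on very long, Acadl on long, Acadm on medium and Acads on short chains. All 4 were below 0 in each comparison with control or ground AEM, with no call. Acads read 8.79, 8.83, 8.85, 8.85 and 8.89 in suspension and 8.78, 8.79, 8.80, 8.80 and 9.07 after reloading, against 9.05, 9.07, 9.07, 9.09 and 9.09 in control. The control samples were tightly grouped, and only reloaded replicate 15 reached them. The differences were -0.23 ± 0.07 in both (14.9% and 14.6% lower), with adjusted p = 0.198 and 0.243. In flight Acads read 8.73, 8.76, 8.89 and 8.94 in spaceflight, against 9.01, 9.02, 9.18 and 9.19 in ground AEM. The groups did not overlap, and the difference of -0.27 ± 0.08 (17.2% lower) had an adjusted p of 0.0751. It was called after quantile normalization (-0.29, adjusted p = 0.0428) and with a trended, robust variance prior (adjusted p = 0.0474).

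Acadl read 10.46, 10.53, 10.54 and 10.62 in spaceflight, against 10.40, 10.45, 10.77 and 10.86 in ground AEM. Ground AEM replicates fell to both sides of the flown ones (-0.08 ± 0.10). In the calf experiment Acadl read 10.09, 10.21, 10.32, 10.38 and 10.61 in suspension and 10.20, 10.22, 10.49, 10.56 and 10.61 after reloading, against 10.38, 10.44, 10.59, 10.76 and 10.93 in control. The ranges overlapped, at -0.30 ± 0.11 in suspension and -0.21 ± 0.11 in reloading. Acadm, whose promoter is shown above, read 10.62, 10.84, 10.97, 11.01 and 11.01 in suspension and 10.72, 10.76, 10.87, 10.96 and 11.01 after reloading, against 11.03, 11.08, 11.10, 11.19 and 11.22 in control. No suspended or reloaded sample reached a control, at -0.24 ± 0.08 and -0.26 ± 0.08. Acadvl differed by -0.19 ± 0.09 in flight, -0.25 ± 0.09 in suspension and -0.32 ± 0.09 in reloading.

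The next steps are carried by Echs1 and Hadh (hydratase and dehydrogenase of shorter chains), by Hadha and Hadhb, the subunits of the trifunctional protein of long chains, by the thiolase Acaa2 and by Hsd17b10, which also oxidises other substrates. All 6 were below 0 in suspended and in reloaded muscle, and 4 of 6 were in flight. Acaa2 read 8.91, 9.38, 9.70, 9.70 and 9.77 in suspension and 9.36, 9.53, 9.70, 9.74 and 9.80 after reloading, against 9.68, 9.80, 9.90, 10.02 and 10.05 in control. Suspension replicate 8 lay far below the others of its group, and the difference of -0.40 ± 0.13 (24.2% lower) was not called (adjusted p = 0.313). Without that sample it was -0.25. A second Acaa2 probe set gave -0.38 ± 0.08 in suspended muscle and passed when each probe set was tested on its own (adjusted p = 0.0429), and the remaining one gave -0.53 ± 0.18 (adjusted p = 0.343).

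In flight Acaa2 read 9.86, 9.88, 10.04 and 10.05 in spaceflight, against 10.09, 10.16, 10.28 and 10.39 in ground AEM. The groups did not overlap, and the difference of -0.27 ± 0.09 (17.1% lower) had an adjusted p of 0.0992, or 0.0404 with the trended, robust prior. Hadhb read 10.87, 10.98, 10.98, 11.08 and 11.12 in suspension and 10.91, 10.94, 10.99, 11.07 and 11.21 after reloading, against 11.15, 11.16, 11.32, 11.35 and 11.46 in control. The suspended samples lay below all controls (-0.28 ± 0.08) and 4 of 5 reloaded samples did (-0.26 ± 0.08), but a second Hadhb probe set gave 0.12 ± 0.14 in reloading. Its neighbour Hadha read 10.20, 10.28, 10.32, 10.46 and 10.56 in suspension and 10.10, 10.23, 10.25, 10.28 and 10.36 after reloading, against 10.42, 10.55, 10.55, 10.66 and 10.67 in control. Here it was the reloaded samples that lay below all controls, at -0.32 ± 0.08 (adjusted p = 0.104), while suspension gave -0.20 ± 0.08. In flight the pair differed by -0.01 ± 0.07 (Hadha) and -0.14 ± 0.07 (Hadhb). Hadh differed by -0.14 ± 0.07, -0.18 ± 0.08 and -0.20 ± 0.08 in flight, suspension and reloading, Echs1 by 0.02 ± 0.09, -0.25 ± 0.09 and -0.28 ± 0.09, and Hsd17b10 by 0.01 ± 0.09, -0.13 ± 0.10 and -0.16 ± 0.10.

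Unsaturated chains need the isomerases Eci1, Eci2 and Ech1 and the reductase Decr1. Ech1 read 10.02, 10.07, 10.23, 10.37 and 10.37 in suspension and 9.92, 10.13, 10.19, 10.20 and 10.35 after reloading, against 10.33, 10.34, 10.47, 10.66 and 10.77 in control. Both ranges touched the lowest controls, at -0.30 ± 0.10 and -0.36 ± 0.10. In flight Ech1 read 10.31, 10.43, 10.49 and 10.53 in spaceflight, against 10.44, 10.52, 10.57 and 10.60 in ground AEM (-0.10 ± 0.08). Decr1 read 9.24, 9.44, 9.52 and 9.67 in spaceflight, against 9.58, 9.63, 9.71 and 9.80 in ground AEM. The ranges overlapped (-0.21 ± 0.10, adjusted p = 0.249). On the calf arrays Decr1 read 8.84, 8.86, 8.90, 8.93 and 9.05 in suspension and 8.78, 8.85, 8.88, 8.90 and 9.14 after reloading, against 8.84, 8.89, 9.32, 9.42 and 9.48 in control. The controls spread widely, with 2 of them inside the suspended range (-0.28 ± 0.11 and -0.28 ± 0.11). Eci1 differed by -0.11 ± 0.07 in flight, -0.29 ± 0.12 in suspension and -0.31 ± 0.12 in reloading, and Eci2 by 0.11 ± 0.08, -0.12 ± 0.10 and -0.14 ± 0.10.

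Electrons from the acyl-CoA dehydrogenases pass through the flavoprotein subunits Etfa and Etfb and through Etfdh, which hands them to ubiquinone. Etfdh read 8.66, 8.76, 8.96, 9.18 and 9.38 in suspension and 8.86, 9.04, 9.09, 9.20 and 9.24 after reloading, against 9.15, 9.20, 9.39, 9.40 and 9.50 in control. The suspended samples spread most, with replicates 9 and 8 lowest (-0.34 ± 0.12 in suspension, -0.24 ± 0.12 in reloading). In flight Etfdh read 9.26, 9.37, 9.44 and 9.48 in spaceflight, against 9.35, 9.56, 9.62 and 9.78 in ground AEM (-0.19 ± 0.10). Etfa read 10.34, 10.35, 10.39, 10.49 and 10.51 in suspension and 10.33, 10.36, 10.41, 10.43 and 10.48 after reloading, against 10.53, 10.58, 10.60, 10.65 and 10.67 in control. No suspended or reloaded sample reached a control, though the differences were only -0.19 ± 0.06 and -0.20 ± 0.06 (adjusted p = 0.311 and 0.313). Etfb lay below all controls in suspension (-0.24 ± 0.09), with -0.21 ± 0.09 in reloading. In flight Etfa and Etfb differed by -0.14 ± 0.08 and -0.01 ± 0.08.

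Over these 4 steps, which make up the mitochondrial cycle, all 17 genes were below 0 in suspended muscle (median -0.25, range -0.40 to -0.12) and in reloaded muscle (median -0.26, range -0.36 to -0.14). In flight 14 of 17 were below 0 (median -0.14, range -0.27 to 0.11). Limma called none of the 17 in any of the 3 comparisons; at an unadjusted p under 0.05, 15 were lower in suspension, 13 in reloading and 4 in flight, against 5.04%, 4.38% and 9.6% of all genes, and none was higher. The mean log2 signal of the 6 hydratase to thiolase genes was 9.97 to 10.32 on the suspension arrays and 10.02 to 10.22 on the reloaded arrays, against 10.27 to 10.47 on the control arrays. For these 6 genes, the range of the spaceflight arrays was 10.45 to 10.60, against 10.52 to 10.67 in ground AEM.

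**Figure D3:**
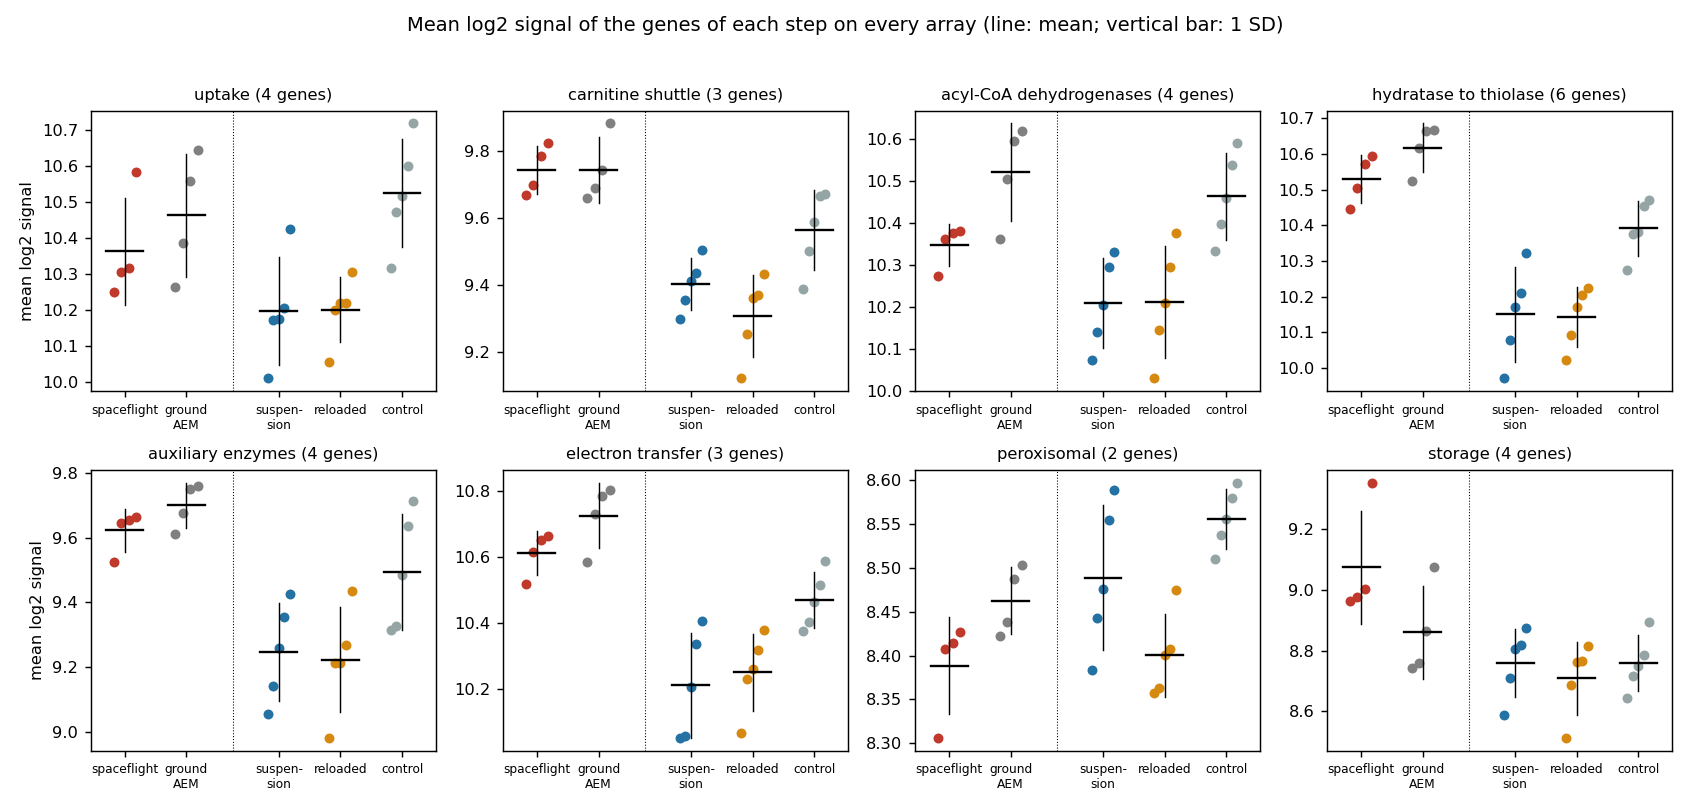
Mean log2 signal of the genes of each step on every array, by group, with the group mean (horizontal line) and 1 SD (vertical bar); steps with 1 measured gene are left out. Suspension and reloaded points of the 4 mitochondrial steps lie mostly below the control points, while the storage means of the calf groups overlap and spaceflight replicate 10 is the highest of the flight arrays.

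Acot2, a mitochondrial thioesterase that splits acyl-CoA, read 5.94, 6.06, 6.07 and 6.11 in spaceflight, against 5.68, 6.05, 6.10 and 6.24 in ground AEM. On the calf arrays it read 5.97, 5.99, 6.08, 6.09 and 6.13 in suspension and 5.92, 5.94, 6.03, 6.08 and 6.12 after reloading, against 5.80, 5.92, 5.99, 6.04 and 6.13 in control. These values lie close to the filter on low values and the groups overlapped (0.03 ± 0.11, 0.07 ± 0.07 and 0.04 ± 0.07).

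Peroxisomes shorten very long and branched chains, here read from the thiolase Acaa1a and the multifunctional enzyme Hsd17b4. Acaa1a read 7.88, 8.02, 8.08 and 8.08 in spaceflight, against 8.00, 8.02, 8.16 and 8.23 in ground AEM. On the calf arrays it read 8.45, 8.52, 8.60, 8.70 and 8.76 in suspension and 8.43, 8.44, 8.56, 8.56 and 8.61 after reloading, against 8.50, 8.51, 8.54, 8.60 and 8.68 in control. All groups overlapped (-0.09 ± 0.08, 0.04 ± 0.07 and -0.05 ± 0.07), and a second, dimmer probe set gave -0.27 ± 0.10 in suspension. Hsd17b4 read 8.16, 8.35, 8.36, 8.47 and 8.50 in suspension and 8.11, 8.24, 8.25, 8.28 and 8.52 after reloading, against 8.48, 8.51, 8.52, 8.60 and 8.62 in control. A single sample of each group reached the controls (-0.17 ± 0.08 and -0.26 ± 0.08, not called). In flight Hsd17b4 read 8.73, 8.75, 8.78 and 8.79 in spaceflight, against 8.71, 8.74, 8.82 and 9.00 in ground AEM (-0.06 ± 0.08).

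Storage was read from the acyltransferases Dgat1 and Dgat2, which complete triglyceride, and from the lipases Pnpla2 and Mgll, which take the first and the last fatty acid off it. In flight all 4 were above 0 (median 0.23), none called. For Mgll this held for its brightest probe set (0.04 ± 0.12), while its other tested probe sets gave -0.06 and -0.03. Dgat1 read 7.43, 7.79, 7.92 and 8.36 in spaceflight, against 7.43, 7.47, 7.51 and 7.69 in ground AEM. Spaceflight replicate 8 lay among the ground AEM samples and replicate 10 far above them (0.35 ± 0.15, 95% interval 0.02 to 0.68, adjusted p = 0.220). Without replicate 10 the difference was 0.19. On the calf arrays Dgat1 read 7.42, 7.47, 7.51, 7.56 and 7.66 in suspension and 7.48, 7.50, 7.51, 7.52 and 7.58 after reloading, against 7.07, 7.18, 7.30, 7.35 and 7.43 in control. It was the single member higher at an unadjusted p under 0.05 in suspension (0.26 ± 0.07, adjusted p = 0.188), and in reloading every sample lay above every control (0.25 ± 0.07, adjusted p = 0.243).

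Pnpla2 read 10.02, 10.16, 10.21 and 10.37 in spaceflight, against 9.75, 9.87, 9.93 and 10.16 in ground AEM. Ground AEM replicate 3 lay within the flown range (0.27 ± 0.10, adjusted p = 0.159). In the calf experiment Pnpla2 differed by 0.07 ± 0.10 in suspension and -0.09 ± 0.10 in reloading. Dgat2 differed by 0.20 ± 0.15, -0.07 ± 0.09 and -0.26 ± 0.09, and Mgll by 0.04 ± 0.12, -0.26 ± 0.11 and -0.11 ± 0.11, in flight, suspension and reloading. None of these was called.

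Besides the listed genes, 9 further lists of the pathway with 70 tested genes were read (87 names, 75 on the array). In flight 6 of the 70 rose and 2 fell, where 5.64% of all genes were called. Among the 6 is Cidec, which passed the filter only through arrays outside ground AEM. In suspension limma called none of the 70, where 0.372% of all genes were called, and at an unadjusted p under 0.05 11 were lower and 3 higher, against 5.04% and 3.61% of all genes. As the call rates over all genes differ this much, the counts of flight and suspension are not to be read against each other. In reloaded muscle 2 rose relative to suspension (0.58% of all genes were called), and 1 rose and 1 fell relative to control (0.318% of all genes). The medians over the 70 genes were -0.03 in flight, -0.04 in suspension and -0.05 in reloading. No gene was called in 5 of the lists in any of these comparisons, namely other uptake and binding (9 tested), other activation (5), the malonyl-CoA brake and AMPK (5), other peroxisomal (9) and glyceride synthesis (6).

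Among regulators, 2 of 12 tested genes fell in flight, where 5.64% of all genes were called. Ppargc1a, which encodes PGC-1 alpha, averaged 8.23 ± 0.14 in spaceflight and 9.46 ± 0.34 in ground AEM (SD, n = 4 each) and fell by 1.23 ± 0.14 (adjusted p = 0.000322). Ppara averaged 7.49 ± 0.37 in spaceflight and 8.31 ± 0.23 in ground AEM and fell by 0.82 ± 0.16 (adjusted p = 0.0104). In suspended muscle Ppargc1a differed by -0.04 ± 0.27 and Ppara by -0.29 ± 0.12, neither called. After reloading Ppargc1a rose by 1.29 ± 0.27 over suspension (8.06 ± 0.92 and 6.77 ± 0.21, SD, n = 5 each, adjusted p = 0.0261), with a wide spread among the reloaded samples. Nrip1, a corepressor of nuclear receptors, rose by 0.64 ± 0.13 over suspension and by 0.78 ± 0.13 over control (adjusted p = 0.0209 and 0.00521).

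Among fuel genes known as PPAR targets, 2 of 6 rose in flight, against 5.64% of all genes called. Ucp3, a mitochondrial carrier of muscle, averaged 10.15 ± 0.25 in spaceflight and 9.35 ± 0.37 in ground AEM and rose by 0.80 ± 0.17 (adjusted p = 0.0137). Angptl4, a secreted inhibitor of lipoprotein lipase, averaged 8.22 ± 0.17 and 7.53 ± 0.30 in these groups and rose by 0.70 ± 0.13 (adjusted p = 0.00939). In suspended muscle all 6 were below 0 (median -0.19) and none was called. Pdk4, the kinase that switches off pyruvate dehydrogenase, differed by 0.10 ± 0.17 in flight, -0.69 ± 0.31 in suspension and 0.05 ± 0.31 in reloading relative to control. The carnitine carrier Slc25a20 differed by -0.06 ± 0.09, -0.20 ± 0.09 and -0.28 ± 0.09, and the droplet coat protein Plin2 by 0.08 ± 0.09, -0.19 ± 0.07 and -0.10 ± 0.07. Of 10 other mitochondrial genes, Slc22a5, which brings carnitine into the cell, rose in flight (8.00 ± 0.13 in spaceflight, 7.59 ± 0.10 in ground AEM, difference 0.40 ± 0.09, adjusted p = 0.0162).

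Of 8 tested genes of lipid droplets and lipolysis, 3 rose in flight, again against 5.64% of all genes called. Cidec, a droplet fusion protein of fat cells, averaged 6.72 ± 0.46 in spaceflight and 5.05 ± 0.09 in ground AEM and rose by 1.67 ± 0.17 (adjusted p = 0.000190). Its ground AEM mean lay under the filter value of 5.83, so it was tested only through arrays of other groups, where it read higher. The droplet coat protein Plin4 averaged 11.57 ± 0.08 and 10.50 ± 0.35 in these groups and rose by 1.07 ± 0.14 (adjusted p = 0.000625). The hormone-sensitive lipase Lipe averaged 7.60 ± 0.18 and 6.96 ± 0.19 and rose by 0.63 ± 0.11 (adjusted p = 0.00488). Plin5, a droplet coat protein of oxidative tissues, differed by 0.56 ± 0.15 in flight (adjusted p = 0.0508) and -0.46 ± 0.13 in suspension (adjusted p = 0.204), and fell by 0.65 ± 0.13 in reloaded relative to control muscle (adjusted p = 0.0334). Fabp4, the fatty acid binding protein of fat and capillary cells, differed by 0.27 ± 0.08 in flight (adjusted p = 0.0651) and by 0.04 ± 0.09 in suspension.

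Fat cell markers moved in the same comparison. All 5 tested adipocyte markers rose in flight (median 1.05), Cidec and Lipe among them, with Adipoq by 1.44 ± 0.12 and Retn by 1.05 ± 0.13. Cidec passed the filter only through arrays outside ground AEM, and Pck1, also on the array, did not pass it. The 5 are thus the markers that the filter left. The mean log2 signal of 6 adipocyte markers was 7.20 to 7.54 on the spaceflight arrays and 6.14 to 6.37 on the ground AEM arrays. On each ground AEM array 2 or 3 of the 6 lay under the filter value, against 1 on each spaceflight array. In suspended muscle all 5 were above 0 (median 0.53) with none called, at 6.83 to 7.27 on the suspension arrays and 6.21 to 6.81 on the control arrays. Cfd and Plin1 are not named in the platform table used here. The part of fat cells in the values of Dgat1, Dgat2, Pnpla2, Plin4 and Lipe was not tested. Among other markers, the endothelial gene Kdr fell by 0.32 and the slow fibre gene Myl2 by 0.42 in flight (5.64% of all genes called). The mean of 8 endothelial markers was 7.47 to 7.52 on the spaceflight arrays, below every ground AEM array (7.59 to 7.67). The part of endothelial cells in the results was not tested. Of the 9 slow fibre markers only 5 were below 0, with means of 10.54 to 11.16 in spaceflight and 10.82 to 11.09 in ground AEM. In flight 3 of 6 fibroblast genes fell (Col1a1, Col1a2 and Col3a1, by 0.99, 0.73 and 0.61), whereas none of 7 macrophage genes was called by limma.

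**Figure D4:**
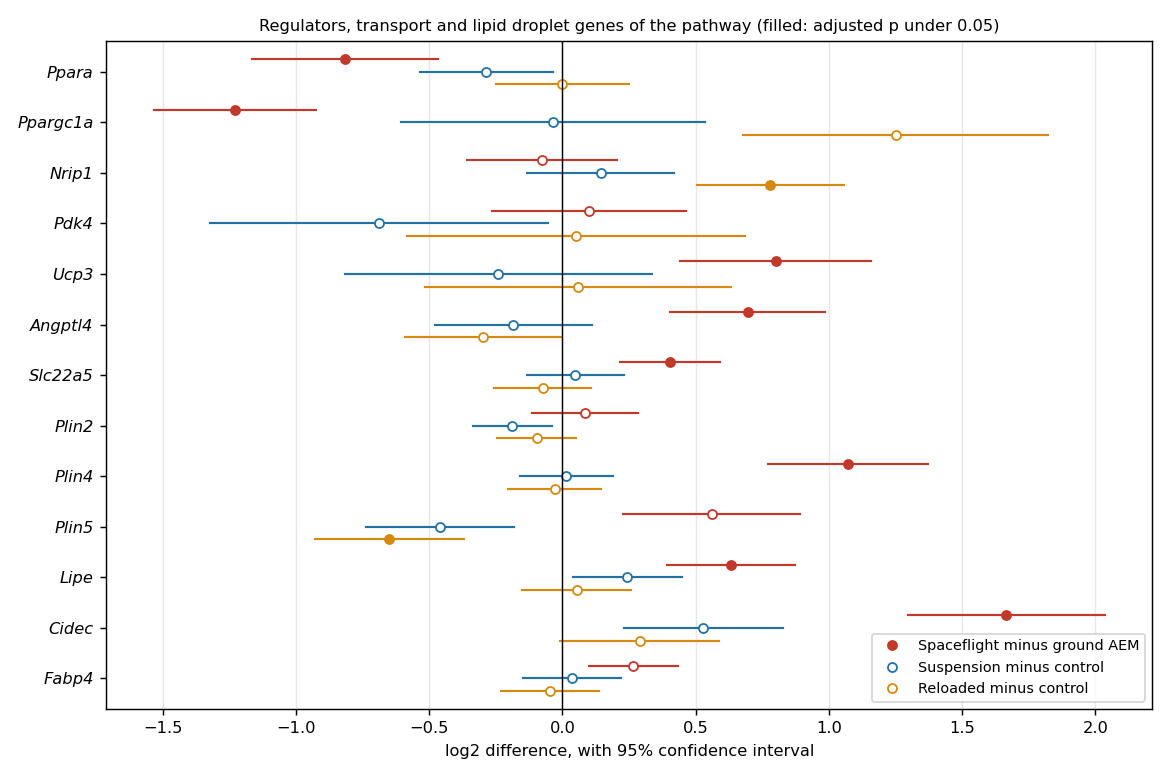
Log2 difference with 95% confidence interval of 13 regulators, transport and droplet genes in spaceflight minus ground AEM, suspension minus control and reloaded minus control (limma); filled points passed an adjusted p of 0.05. In flight Ppara and Ppargc1a lie left of 0 (-0.82 and -1.23) while Ucp3, Angptl4, Slc22a5, Plin4, Lipe and Cidec lie right of it. Plin5 lies on opposite sides of 0 in flight (0.56) and in reloading (-0.65). Cidec passed the filter only through arrays outside ground AEM.

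The flight effect was set against each calf effect in 1 fit of all 23 arrays. For flight minus suspension no member was called by limma, against 1.27% of all genes, and 3 members (Fabp3, Mlycd and Echs1) were higher at an unadjusted p under 0.05, against 6.37% of all genes. With 1 sample left out that number was 2 to 7, with 7 without suspension replicate 25 and 5 without control replicate 1 or ground AEM replicate 3. The difference was above 0 in 27 of 32 members with a median of 0.14, where the median over all genes was -0.01. That median was 0.09 after quantile normalization (26 above 0) and 0.09 with array weights (25 above 0). Without suspension replicates 8 and 9 it was 0.10 (25 above 0). The experiments also differ in the muscle named and in array range, and the part of either was not tested. Fabp3 gave 0.60 ± 0.22 (95% interval 0.15 to 1.05, adjusted p = 0.234), so a smaller fall in flight than in suspension was not shown at the threshold. With the flight groups exchanged, as the description field has them, Fabp3 gave 1.47 (adjusted p = 0.000104) and 7 members were called (Fabp3, Acadvl, Acads, Hadhb, Acaa2, Etfa and Dgat1). For flight minus reloading Mlycd was called, as given above, where 2.74% of all genes were, and 6 members (Mlycd, Hadha, Dgat2, Pnpla2, Echs1 and Cpt2) were higher at an unadjusted p under 0.05, against 8.03% of all genes. With 1 sample left out it was 3 to 9, with 3 without ground AEM replicate 2 and 9 without reloaded replicate 15. Both tests use the same flight arrays. Outside the list, Plin5 (1.02 and 1.21), Plin4 (1.06 and 1.10), Cidec (1.14 and 1.38) and Angptl4 (0.88 and 0.99) were called in both tests. The first value is of flight minus suspension and the second of flight minus reloading. Cidec passed the filter only through arrays outside ground AEM, where it read higher, so its calls carry that limit. In flight minus reloading, Ppargc1a (-2.48), Ppara (-0.81), Nrip1 (-0.86), Slc22a5 (0.48) and Lipe (0.58) were called too.

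The 32 genes tended to move together from array to array within a group, on some arrays more than on others. Ground AEM replicate 2 lay below its group mean in 28 of them, spaceflight replicate 11 in 27, reloaded replicate 16 in 28 and control replicate 1 in 27. Ground AEM replicate 3 lay above in 28 and suspension replicate 25 in 26. Suspension replicate 9 and reloaded replicate 33 split evenly, with 16 genes below and 16 above. Over pairs of members, the median correlation of deviations from the group means was 0.35 on 8 flight arrays and 0.36 on 15 calf arrays, against 0.01 on both for 1827 tested genes taken at even steps; the pairs share arrays and are only described. Leaving out 1 sample at a time moved the median over members to between -0.11 and -0.05 in flight, -0.24 and -0.18 in suspension, and -0.27 and -0.20 in reloading, with 19 to 24, 26 to 27 and 28 to 30 members below 0.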

How the data were processed

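Gene expression of 23 muscle samples in 5 groups was read on 1 Affymetrix array each. The authors deposited log2 values. The submitters' processing notes name both RMA and MAS5, and which of these gave the table, in which version and from which genome build is not given in the sources used here. The values were taken as they stand. Of 22690 probe sets, 64 controls were left out; 20380 have 1 gene symbol in the platform annotation, 691 several and 1555 none. A gene was read from its probe set with the highest mean (15 members have several) and tested where its log2 value passed 5.83, the 40th percentile, on at least 4 arrays. Groups were compared with limma 3.58.1 in R 4.3.3 (lmFit, eBayes, two-sided), over 8 flight arrays, 15 calf arrays, or all 23 for differences of effects, and a gene was called where its p, adjusted by Benjamini and Hochberg over 9133 genes, was under 0.05. The script was tested on simulated data. The number of arrays limits the precision; no scan dates are given. The members, the gene lists and the rule for values by array (members called in any comparison, and per step the largest difference in flight and in suspension; others shown were chosen after their values were seen) were chosen with earlier results of these data known, as were the tests and the alternatives.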

Additional observations from a re-analysis of the deposited data

Results flagged for a closer look

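A single sample stood far from the rest of its group, by Dixon's criterion, in 6 of 160 sets of values (32 genes in 5 groups), where chance gives about 1 in 20. Slc27a1 was 7.78 in reloaded replicate 14, against 7.63 in the next sample. Acads was 9.07 in reloaded replicate 15, against 8.80 in the next. Eci2 was 8.35 in spaceflight replicate 9, against 8.28 in the next. Etfa was 10.75 in spaceflight replicate 11, against 10.85 in the next. Mgll was 8.38 in reloaded replicate 16, against 8.87 in the next, and 8.52 in control replicate 19, against 8.97 in the next. Mlycd differed between the flight and reloaded effects by 0.57 on the log2 scale in the test of the difference itself (0.17 in flight and -0.39 in reloading). It was the 1 member of 32 called, near the share of all genes called in that comparison (2.74%).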

How the results depend on the processing

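The alternatives were no filter, a filter at the 60th percentile, probe sets averaged by gene or tested singly, quantile normalization, median centring, a trended and robust eBayes, array weights, other arrays in the fit, exchanged flight groups and leaving out samples. Members called in flight numbered 1 with quantile normalization (Acads), 2 with the trended, robust prior (Acads and Acaa2) and 0 to 1 with a sample left out. In reloaded against control muscle they numbered 2 with the mean of probe sets (Fabp3 and Lpl), 2 with array weights (Fabp3 and Mlycd), 2 with those groups alone (Fabp3 and Hadha) and 0 to 2 with a sample left out. For flight minus reloading they numbered 0 with quantile normalization and 0 to 2 with a sample left out; Mlycd was not called without spaceflight replicate 9 or 10, reloaded replicate 14, 16 or 18, ground AEM replicate 2 or 4, or control replicate 21 or 22. Called genes over the whole array numbered 17 in suspension with the mean of probe sets, 7 without suspension replicates 8 and 9, and 15 to 47 with a sample left out, namely 15 without control replicate 22, 16 without control replicate 19, 19 without suspension replicate 8 and 21 without suspension replicate 9 or 30. In reloaded against control muscle they numbered 88 with array weights and 53 with those groups alone, and in flight minus reloading 436 with array weights. In flight they numbered 283 to 491 with a sample left out, with 326 and 303 without spaceflight replicates 8 and 9 and 283 and 328 without ground AEM replicates 3 and 4. With the flight groups exchanged, flight minus suspension called 529 genes and 7 members, flight minus reloading called 6 members (Fabp3, Acadvl, Acads, Hadhb, Etfa and Dgat1) with a median of 0.33, and Mlycd gave 0.22 (adjusted p = 0.513). The cause of these changes was not tested. Fabp3 in suspended muscle was called under each alternative run, and no called member reversed. No paired analysis was possible because the replicate numbers of the groups compared do not match within either experiment.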
